A study of Mus musculus with 7 samples.

Results

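The genes of the complement system were followed in the mammary gland, in wild-type mice and in mice with an excess of the A form of the progesterone receptor (PRA transgenic). The members were 35 genes taken by the name the array files give each probe, and they had 57 of the 56605 probes on the array, which carried 37074 gene names in all. For 27 of the 35 genes the gland signal was strong enough to compare the genotypes, and for the other 8 (Mbl1, Mbl2, Vsig4, C4bp, Cfi, C8a, C8b and C9) it was not. The study asked which transcripts differ with this excess. It used 3 wild-type and 4 PRA transgenic female mice of the FVB strain, aged 20 to 25 weeks, that had never been pregnant and were all in diestrus. From each animal 1 abdominal gland was taken whole after its lymph nodes had been cut out, and its total RNA was extracted after the fatty layer of the homogenate had been discarded. Each animal had an array of its own, on which the Cy5-labeled gland RNA competed with Universal Mouse Reference RNA, pooled from mouse cell lines and labeled with Cy3. The PRA transgenic mice carried a pair of transgenes, a GAL-4 transactivator under a cytomegalovirus promoter and an additional PR-A gene under GAL-4-binding sites, so that the extra receptor was not tied to a mammary promoter. Their glands are called preneoplastic in the sample labels. Because whole glands were used, fewer cells of a type and less RNA per cell cannot be told apart in any value below.

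Complement is a set of plasma and tissue proteins that mark microbes and dying cells. The classical pathway starts from C1q, the lectin pathway from mannose-binding lectins and ficolins, and the alternative pathway amplifies through factor B, factor D and properdin, and all of them meet at C3. Cleaved C5 then recruits C6, C7, C8 and C9 into the membrane attack complex, small fragments of C3 and C5 act on receptors of myeloid cells, and regulators on host cells hold the cascade in check. The liver makes most of the plasma components, but macrophages make C1q, and adipocytes, which fill the mouse mammary fat pad, make factor D (adipsin).

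Values are log2 ratios of the gland (Cy5) to the reference (Cy3), so that a value of 0 means the same signal in both, and a level is comparable between arrays for a probe but not between probes. A probe was compared if either genotype had the Cy5 signal well above background in all its animals, and the brightest such probe stood for its gene. The difference between genotypes is given as a log2 fold change, PRA transgenic minus wild-type, with its standard error from limma, and a gene is said to be called where the unadjusted P was under 0.05 and the change 1.5-fold or more. Arrays have no read depth, and the number of animals limits the precision. All 7 arrays lay on 1 slide, with the wild-type animals in row 1 and the others in row 2, and slide row cannot be told apart from genotype. Cy5 was well above background for 66.2%, 65.1% and 62.6% of probes on the wild-type arrays and for 57.7%, 59.9%, 56.6% and 60.2% on the PRA transgenic arrays. For Cy3, the same RNA throughout, the shares were 54.0%, 53.7% and 53.2% against 47.2%, 50.6%, 48.8% and 50.1%. Both dyes were thus above background for fewer probes on every PRA transgenic array than on any wild-type array.

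No complement gene differed between the genotypes after adjustment over all probes. The lowest adjusted p among the 27 genes was 0.352 (limma with Benjamini-Hochberg adjustment), and over the whole array 4 of 34284 probes, or 0.0117%, had an adjusted p under 0.05. With an unadjusted P under 0.05 there were 2 genes, C6 and Hc, both with lower ratios in PRA transgenic glands, although Hc was higher there in the Cy5 signal alone. That share of 7.41% stood beside 7.95% of all 22499 gene names compared. The methods' t-test on the same values gave the same count of 2, for which no share over all gene names is given, and none after adjustment. With the 1.5-fold limit, C6 alone was called, and over all gene names 4.06% were. The genotypes did not overlap for 2 genes, C6 and C5ar2, again lower in PRA transgenic glands, while 9.11% of all gene names did not overlap. With all 7 arrays and this processing these counts of members were near the shares of the whole array. After another background correction with loess 2 genes were called (7.41%, against 0.957% of all probes), and in Cy5 alone 2 (7.41%, against 3.42%). With array weights there were 3 (11.1%, against 5.94%). Quantile normalization and the methods' t-test kept 1 (3.7%, against 4.45% and 2.9%). The shares also differed with some arrays left out. Without PRA transgenic replicate 4 there were 5 genes called (18.5%, against 6.80% of all probes), and without wild-type replicate 2 there were 4 (14.8%, against 4.58%). Of the 27 genes 15 had a positive and 12 a negative log2 fold change of the ratio, with a median of 0.06, against 0.01 over all gene names, but in Cy5 alone 10 were positive and 17 negative. With each array left out in turn, 12 of the 27 genes changed the sign of their difference at least once.

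**Figure D1:**
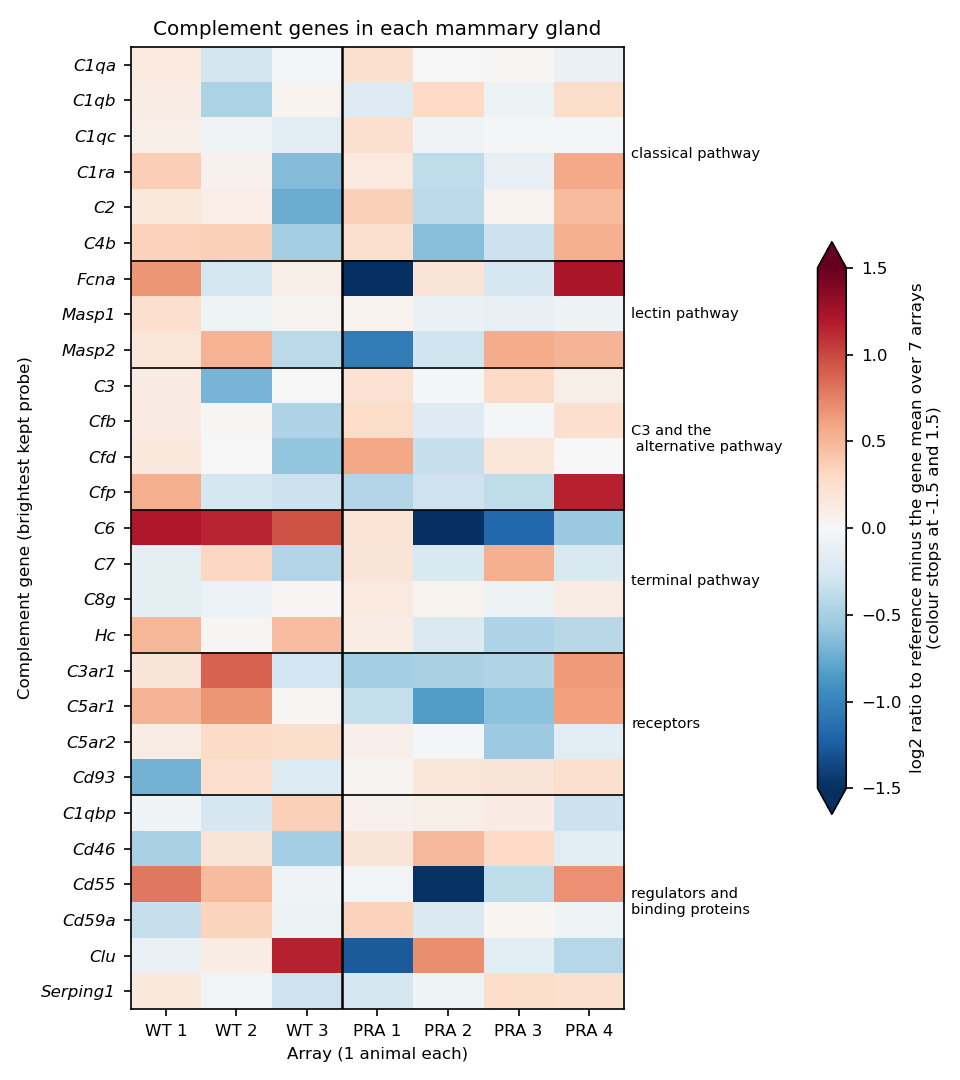
Log2 ratio of gland to reference for the 27 complement genes (rows, grouped by role) on the 7 arrays (columns; WT, wild-type; PRA, PRA transgenic), each minus the mean of its gene; the colour scale stops at -1.5 and 1.5. C6 is the row in which all 3 wild-type arrays are high, and in most other rows arrays of both genotypes share the same colours.

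Most of the complement genes stood above the reference in every gland. The log2 ratio was above 0 on all 7 arrays for 20 of the 27 genes (74.1%), against 35.6% of all gene names, and below 0 on all 7 for 3, Masp1, Masp2 and C1qbp (11.1%, against 31.3%). No array had the dyes swapped, so a dye effect on these levels was not tested. Among the 20 are C6 and Hc, whose reference signal was above background on no array.

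No gene of the classical pathway passed the unadjusted threshold. Of its 6 genes, which were all compared, 5 had a positive log2 fold change, with a median of 0.11. In the Cy5 signal alone, without the reference, C1qa (-0.01) and C1qc (-0.03) lay on the other side of 0. C1qa, C1qb and C1qc encode the 3 chains of C1q, the recognition unit of the pathway. C1qa gave log2 ratios of 5.01, 4.59 and 4.85 in the wild-type and 5.11, 4.87, 4.88 and 4.77 in the PRA transgenic glands. C1qb gave 4.34, 3.76 and 4.29 against 4.04, 4.53, 4.16 and 4.51. C1qc gave 4.19, 4.05 and 3.94 against 4.34, 4.05, 4.08 and 4.08. In all 3 genes the genotypes overlapped, and wild-type replicate 2 was the lowest array for C1qa and C1qb. The log2 fold changes were 0.09 (standard error 0.15), 0.18 (standard error 0.20) and 0.08 (standard error 0.13), and the 95% interval of C1qc ran from -0.23 to 0.38. Without wild-type replicate 2 C1qa had -0.025 and C1qb -0.0068. Without PRA transgenic replicate 1 C1qa had 0.020 and C1qc 0.0076, and without wild-type replicate 3 C1qc had 0.014. Each difference was smaller than its standard error and could fall to about 0 with 1 gland left out. These 3 genes lie beside each other on chromosome 4 of mm9, the build of the array files, where their probes fall at chr4:136452409-136452468 for C1qa, chr4:136445766-136445825 for C1qc and chr4:136436578-136436637 for C1qb. Averaged over the trio, wild-type glands had a log2 ratio of 4.34 ± 0.19 (SD, n = 3) and PRA transgenic glands one of 4.45 ± 0.06 (SD, n = 4).

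C4b encodes the mouse C4 protein that C1s cleaves. Its log2 ratios were 4.61, 4.63 and 3.74 in wild-type and 4.51, 3.63, 3.94 and 4.80 in PRA transgenic glands, so that both genotypes ran over about the same range. The log2 fold change was -0.10 (standard error 0.35) and that of its other probe -0.03. With 1 gland left out it ran from -0.40 without wild-type replicate 3 to 0.09 without PRA transgenic replicate 2. C4a, a near-identical copy that may share hybridization with these probes, had 0.49 as a ratio but 0.06 in Cy5 alone, and its reference was above background in 2 of the 4 PRA transgenic animals. C2, the protease that joins C4 in the classical C3 convertase, had 0.29 (standard error 0.30) but -0.0045 without wild-type replicate 3, and C1ra, which encodes the protease C1r, had 0.13 (standard error 0.31) but -0.16 without that gland. The 95% intervals of these 3 genes were wide, from -0.92 to 0.71 for C4b, from -0.41 to 0.98 for C2 and from -0.60 to 0.85 for C1ra.

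No gene of the lectin pathway passed the unadjusted threshold. Of 5 genes 3 were compared, all with negative log2 fold changes of -0.29 to -0.14. Masp2 qualified for comparison through the wild-type glands only. On PRA transgenic replicate 1, where its log2 ratio was -2.84, its Cy5 signal was not well above background. Without PRA transgenic replicate 1 Fcna had 0.22 and Masp2 0.16, and in Cy5 alone Fcna had 0.02. A fainter probe had a positive ratio difference of 0.45 for Masp2 and of 0.09 for Masp1. Both of these probes qualified through the wild-type glands only. Neither mannose-binding lectin could be compared. Mbl1 was well above background on no array and Mbl2 on PRA transgenic replicate 1 only. Fcna, which encodes the macrophage-made ficolin A, ranged from 2.46 to 3.38 in wild-type and from 1.07 to 3.94 in PRA transgenic glands, the widest spread between animals of the branch. Masp1 and Masp2 encode the proteases that ride on these lectins, and both stayed under the reference everywhere, Masp1 between -2.97 and -2.59.

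C3 and the alternative pathway were well represented, and their 4 genes had positive log2 fold changes with a median of 0.22, none past the unadjusted threshold and each at 0.08 or less with 1 of the glands left out. C3, on which all routes converge, gave 2.85, 2.03 and 2.73 in wild-type and 2.96, 2.69, 3.02 and 2.81 in PRA transgenic glands. Wild-type replicate 2 stood below all other arrays, and the rest overlapped. The log2 fold change of C3 was 0.33 with a standard error of 0.22, and limma gave an adjusted p of 0.702. Without wild-type replicate 2 it was 0.08, so that this array set most of the difference. The other C3 probe had 0.51 (adjusted p = 0.603 from limma).

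Cfb encodes factor B, the protease subunit of the alternative C3 convertase. It gave 4.63, 4.53 and 4.05 in wild-type and 4.79, 4.32, 4.49 and 4.77 in PRA transgenic glands. The genotypes overlapped, with a log2 fold change of 0.19 (standard error 0.19). In Cy5 alone, without the reference, Cfb had -0.05, so its direction turned there. Cfd, the adipsin gene, gave 6.53, 6.38 and 5.78 against 6.96, 6.02, 6.56 and 6.38, with a log2 fold change of 0.25 (standard error 0.27). Without wild-type replicate 3, the lowest gland for both genes, Cfd had 0.026 and Cfb 0.012. Its highest array, PRA transgenic replicate 1, was also the highest for the 8 white adipocyte genes examined (mean log2 ratio 6.57, against 5.84 to 6.28 on the other arrays, with Fabp4 the brightest), and the part of adipocyte content in the Cfd values was not tested. Cfp, which encodes properdin, the stabilizer of the convertase, had 0.02 (standard error 0.44) and lay between 1.74 and 1.87 in 3 of the 4 PRA transgenic glands but at 3.35 in replicate 4. Without that animal Cfp had -0.36, and it was also negative without wild-type replicate 2 (-0.10) or 3 (-0.13).

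**Figure D2:**
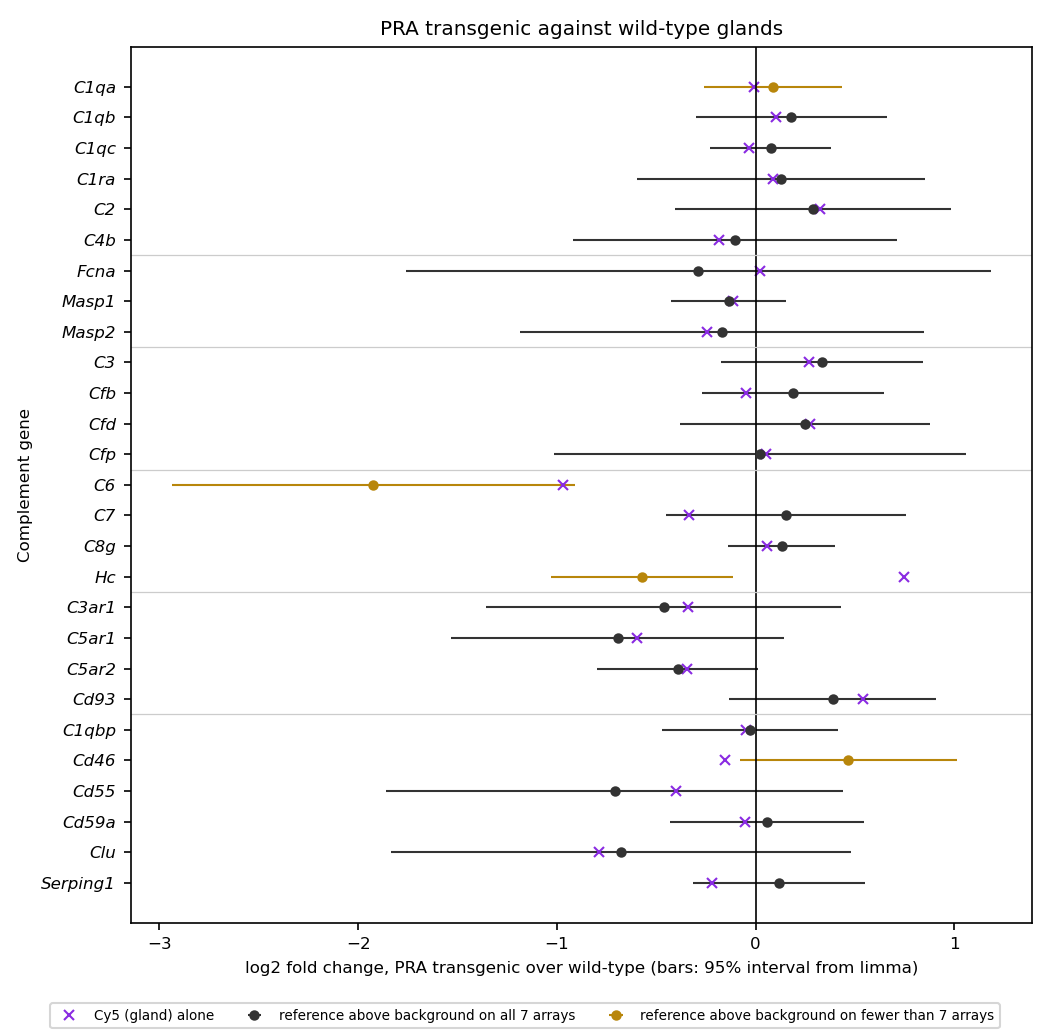
Log2 fold change of PRA transgenic over wild-type glands for each complement gene, by role, as points with 95% intervals from limma, and the fold change in Cy5 alone as crosses; gold points mark probes whose reference signal was above background on fewer than 7 arrays. Only the intervals of C6 and Hc leave out 0, and the cross of Hc lies on the opposite side.

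The terminal pathway held both genes that passed the unadjusted threshold, C6 and Hc. Of 7 genes 4 were compared, and C8a, C8b and C9 were too dim. As ratios C7 and C8g were higher and C6 and Hc lower in PRA transgenic glands, while in Cy5 alone Hc was higher (0.75) and C7 lower (-0.33). The probes of C6, of its neighbor C7 and of Hc are shown because the results turn on what they detect. Each is a 60-base oligonucleotide whose genomic span in the files is longer than 60 bases, so that each bridges at least 1 intron of the spliced transcript. The C6 probe lies at chr15:4689842-4705241 (mm9, plus strand, span 15400 bases), the C7 probe at chr15:4955300-4957690 (minus strand, span 2391 bases) and the Hc probe at chr2:34839283-34840229 (minus strand, span 947 bases).
C6: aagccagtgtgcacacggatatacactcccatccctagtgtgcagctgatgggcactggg
C7: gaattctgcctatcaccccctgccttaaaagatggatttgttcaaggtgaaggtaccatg
Hc: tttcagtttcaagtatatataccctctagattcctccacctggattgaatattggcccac

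C6 encodes the component that binds activated C5 and starts the membrane attack complex. It was the complement gene with the largest difference between genotypes, both as a ratio and in Cy5 alone (-0.97, beside -0.79 for Clu). The log2 ratios of C6 were 4.24, 4.18 and 4.00 in wild-type and 3.24, 1.27, 1.86 and 2.48 in PRA transgenic glands. Every PRA transgenic gland lay below every wild-type gland, and the PRA transgenic glands also spread more among themselves. The means were 4.14 ± 0.13 (SD, n = 3) and 2.21 ± 0.85 (SD, n = 4). The log2 fold change was -1.92 (standard error 0.43, 95% interval -2.94 to -0.91), a size that rests on a reference signal above background on no array. The unadjusted p was 0.00276 and the adjusted p 0.352 (limma with Benjamini-Hochberg adjustment). Leaving out each animal in turn gave -2.27 to -1.61.

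The size of the C6 difference depended on the reference. The Cy3 signal of this probe was well above background on none of the arrays, and it lay higher on the PRA transgenic arrays, by 0.96 on the log2 scale. In Cy5 alone, centered on the 75th percentile of each array, C6 stood at -1.87, -1.92 and -2.66 in wild-type and at -2.58, -3.09, -3.82 and -2.97 in PRA transgenic glands. There PRA transgenic replicate 1 and wild-type replicate 3 overlapped, and the log2 fold change was -0.97 (unadjusted p = 0.0186, adjusted p = 0.475 from limma). After another background correction with loess it was -0.77 (adjusted p = 0.432 from limma). All 16 alternatives that could include this probe kept a negative value and an unadjusted P under 0.05, with adjusted p from 0.234 to 0.677. Of these only Cy5 alone leaves the reference out, and several reuse the same ratios, so the 16 are not independent. Over the array, probes with no reference signal above background were called more often, 16.4% of 3652 probes, against 1.92% of the 25192 probes with the reference above background on every array, and 474 of those 599 were lower in PRA transgenic glands. Their part in the C6 difference was not tested.

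Hc encodes C5, and FVB mice are known to carry a deficient allele of it, so that little or no C5 protein is made whatever the transcript level. Its log2 ratios were 4.21, 3.73 and 4.18 in wild-type and 3.82, 3.50, 3.25 and 3.30 in PRA transgenic glands. PRA transgenic replicate 1 lay above wild-type replicate 2, and the other 3 PRA transgenic glands lay below all wild-type glands. The log2 fold change was -0.57 (standard error 0.19, 95% interval -1.03 to -0.12), just under the 1.5-fold limit, with an unadjusted p of 0.0207 and an adjusted p of 0.463 from limma. The direction turned in Cy5 alone, and after the other background correction with loess as well, where the log2 fold change was 0.29 (unadjusted p = 0.198 from limma). In Cy5 alone Hc stood at -2.37, -2.64 and -2.20 in wild-type and at -1.94, -0.89, -2.17 and -1.63 in PRA transgenic glands, every one of them above the wild-type glands, with a log2 fold change of 0.75 (unadjusted p = 0.0411, adjusted p = 0.548 from limma). For this probe, too, the reference was well above background on none of the arrays, and it lay 1.32 higher on the PRA transgenic arrays on the log2 scale. No direction for Hc is therefore given.

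**Figure D3:**
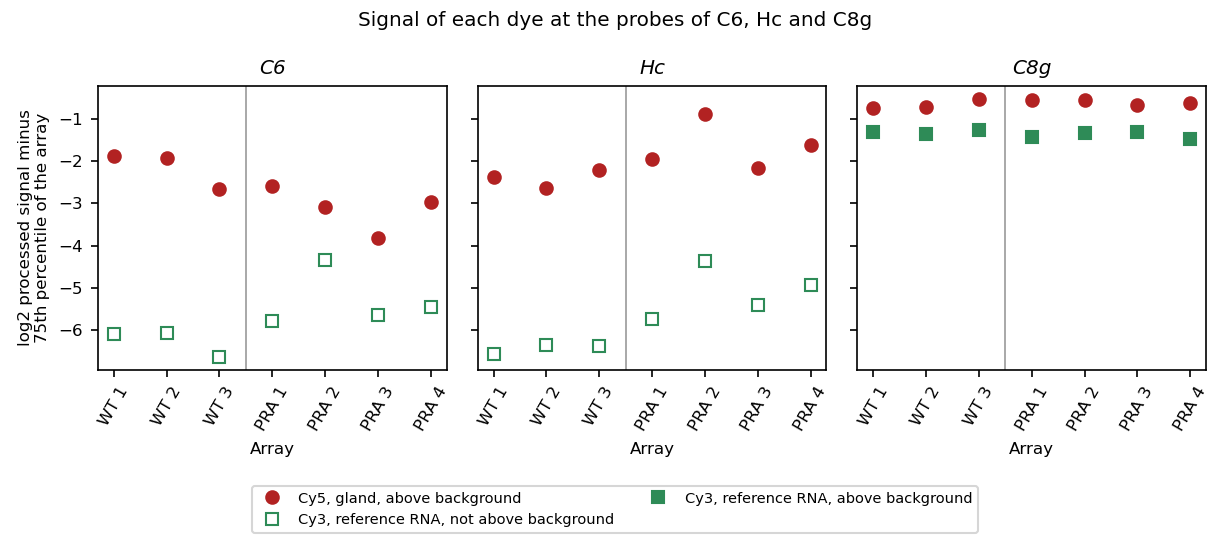
Cy5 (circles) and Cy3 (squares) processed signal of the C6, Hc and C8g probes on each array, as log2 minus the 75th percentile of the array; open symbols were not well above background. The Cy3 squares of C6 and Hc are open on all 7 arrays and lie higher on the PRA transgenic arrays, while those of C8g are filled and nearly level.

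The remaining terminal genes had their reference above background on every array. C7, which joins C6 in the growing complex and whose probe lies on the same stretch of chromosome 15, gave -0.04, 0.42 and -0.34 in wild-type and 0.29, -0.13, 0.63 and -0.13 in PRA transgenic glands. The genotypes overlapped, with a difference of 0.15 (standard error 0.26). In Cy5 alone C7 had -0.33 (adjusted p = 0.633 from limma), so its direction was not settled either. C8g, the gamma chain of C8, was the tightest of the branch. Wild-type glands had 0.67 ± 0.08 (SD, n = 3) and PRA transgenic glands 0.80 ± 0.10 (SD, n = 4), and its log2 fold change of 0.13 had a 95% interval of -0.14 to 0.40. Averaged over the 4 genes, the log2 ratio was 2.25, 2.25 and 2.15 in wild-type and 2.06, 1.36, 1.601 and 1.63 in PRA transgenic glands, an order that C6 and Hc set. The liver makes much of the plasma C6, but of 8 hepatocyte genes 5 were too dim to compare. Alb, whose reference was above background on no array, had a log2 fold change of -0.25 and Serpina1a 0.07, and Tat had -1.04 (adjusted p = 0.507 from limma) but 0.49 in Cy5 alone. The mean of these 3 was 3.98, 4.40 and 4.74 against 4.32, 3.98, 3.94 and 3.62 (difference -0.41, two-sided exact permutation test, p = 0.171), and its part in the C6 values was not tested.

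**Figure D4:**
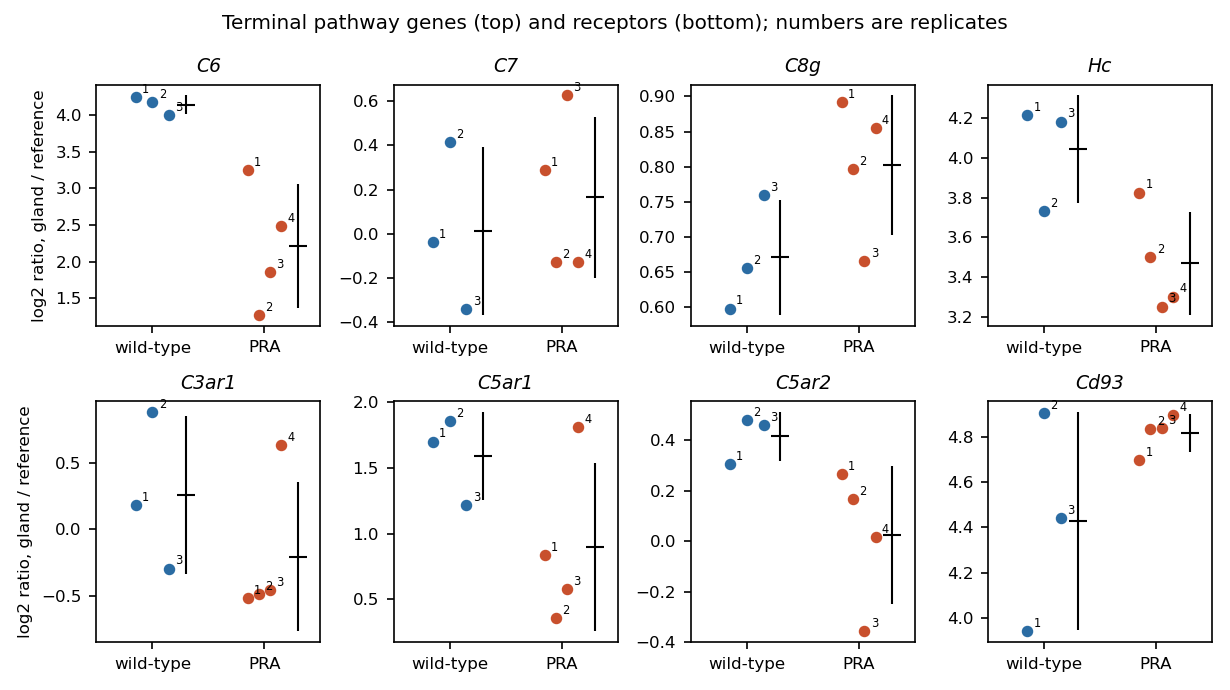
Log2 ratio of gland to reference for terminal pathway genes (top row) and receptors (bottom row), with a point for each animal, numbered by replicate, and the mean and SD of each genotype beside the points. The genotypes are apart for C6 and C5ar2, and PRA transgenic replicate 4 stands above the other PRA transgenic glands for C3ar1 and C5ar1.

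No receptor gene passed the unadjusted threshold. Of 5 genes 4 were compared, and 3 had negative log2 fold changes, C3ar1 at -0.46 (standard error 0.38), C5ar1 at -0.69 (standard error 0.36) and C5ar2 at -0.39 (standard error 0.17). C5ar2 encodes a C5a receptor that does not couple to G proteins. It gave 0.30, 0.48 and 0.46 in wild-type and 0.27, 0.17, -0.36 and 0.02 in PRA transgenic glands. All 4 PRA transgenic glands lay below the wild-type glands, with a gap between wild-type replicate 1 and PRA transgenic replicate 1 that was small beside the spread. The unadjusted p was 0.0547 and the adjusted p 0.567 (limma with Benjamini-Hochberg adjustment), and 5 of 17 alternatives brought the unadjusted P under 0.05. In Cy5 alone the log2 fold change was -0.34, and there too the genotypes did not overlap. The reference was above background on all arrays.

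C5ar1, the principal C5a receptor of neutrophils and macrophages, gave 1.70, 1.86 and 1.22 in wild-type and 0.84, 0.36, 0.58 and 1.81 in PRA transgenic glands. PRA transgenic replicate 4 lay within the wild-type range and the other 3 lay below it. Without that animal the log2 fold change was -0.999 (unadjusted p = 0.00364 from limma) in place of -0.69 (unadjusted p = 0.0912). C3ar1, the C3a receptor, showed the same animal apart, at 0.64 against -0.52 to -0.46 in the other 3. The log2 fold change of C3ar1 was -0.15 without wild-type replicate 2. It was -0.74 (unadjusted p = 0.0452, adjusted p = 0.397 from limma) without PRA transgenic replicate 4. The same gland had the highest mean over 14 macrophage genes, with Lyz2 the brightest of them: 2.94, 2.71 and 2.74 in wild-type and 2.30, 2.74, 2.48 and 3.24 in PRA transgenic glands (difference -0.11, two-sided exact permutation test, p = 0.771). The part of macrophage content in these receptor values was not tested. Over 8 neutrophil and monocyte genes, the brightest being Ly6c2, the means were 2.177, 1.79 and 1.598 against 1.32, 1.37, 1.56 and 1.53. The genotypes did not overlap there (difference -0.41, two-sided exact permutation test, p = 0.0286, which is the lowest value that 3 arrays against 4 can reach, and 0.343 after Benjamini-Hochberg adjustment over 12 cell type lists). In Cy5 alone that difference was -0.27 (exact permutation test, p = 0.371), and over its genes with both dyes above background on all arrays it was 0.015. Of the 8 genes 4 had positive and 4 negative log2 fold changes. Ly6g (-1.75) qualified for comparison through the wild-type glands only, with Cy5 well above background in 3 of the 4 PRA transgenic glands. Cd93, found on endothelium and myeloid cells and once taken for a C1q receptor, ran the other way, with 3.94, 4.90 and 4.44 in wild-type and 4.70, 4.84, 4.84 and 4.89 in PRA transgenic glands. Its log2 fold change was 0.39 (standard error 0.22), and wild-type replicate 1 was the lowest array. Without that array it was 0.14, and without wild-type replicate 2 it was 0.63 (unadjusted p = 0.0121, adjusted p = 0.588 from limma).

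Among regulators and binding proteins no gene passed the unadjusted threshold. Of 8 genes 6 were compared, 3 with positive and 3 with negative log2 fold changes of the ratio, with a median of 0.01, but in Cy5 alone all 6 were negative, from -0.79 for Clu to -0.05 for C1qbp. Serping1 encodes the C1 inhibitor, which blocks C1r, C1s and the MASPs. It gave 6.995, 6.798 and 6.525 in wild-type and 6.59, 6.78, 7.12 and 7.08 in PRA transgenic glands. The ranges of the genotypes nearly coincided, and the log2 fold change of 0.12 (standard error 0.18, 95% interval -0.32 to 0.55) became -0.22 in Cy5 alone.

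Clu encodes clusterin, a secreted chaperone that binds terminal complexes and is made by many epithelia. It gave 2.54, 2.76 and 3.79 in wild-type and 1.38, 3.34, 2.47 and 2.21 in PRA transgenic glands. Wild-type replicate 3 was the highest and PRA transgenic replicate 1 the lowest, with the others mixed, and the log2 fold change of -0.68 had a standard error of 0.49. It was -0.30 without wild-type replicate 3, -0.35 without PRA transgenic replicate 1 and -1.01 without PRA transgenic replicate 2. Cd55, the decay-accelerating factor, had -0.71 (standard error 0.49) at its brightest probe, where PRA transgenic replicate 2 was the lowest gland at 3.10, and its other 3 probes had -0.46, -0.14 and 0.06. Without that gland the brightest probe had -0.32, and without PRA transgenic replicate 4 it had -1.04 (unadjusted p = 0.0459 from limma). Cd59a, which blocks the membrane attack complex on host cells, had 0.06 (standard error 0.21) at its brightest probe and -0.16 at its other probe. C1qbp, whose protein was named for binding C1q but resides mainly in mitochondria, had -0.03 (standard error 0.19) and lay under the reference in every gland.

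Cd46 encodes the membrane cofactor protein, which in mice is known mainly from the testis, and its 3 probes went different ways. The brightest had 0.47 (standard error 0.23) as a log2 fold change of the ratio, with an adjusted p of 0.61 in limma, and -0.15 in Cy5 alone. Another probe, A_55_P2058230, gave 0.45, 0.05 and 0.47 in wild-type and 1.43, 1.32, 1.98 and 1.11 in PRA transgenic glands. The genotypes did not overlap, and the log2 fold change was 1.14 (unadjusted p = 0.00151, adjusted p = 0.332 from limma). Its reference was well above background on no array, its Cy5 signal was so in all 3 wild-type but in only 1 of the 4 PRA transgenic glands, and in Cy5 alone it had -0.24. The probe A_66_P101829 had -0.31 (adjusted p = 0.669 from limma). Both of these probes are shown because they overlap. The files place A_66_P101829 at chr1:196903879-196903938 and A_55_P2058230 at chr1:196902794-196903903 (mm9, minus strand, span 1110 bases), and the capitals mark the 25 bases they share.
A_66_P101829: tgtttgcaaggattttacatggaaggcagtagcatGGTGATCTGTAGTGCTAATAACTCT
A_55_P2058230: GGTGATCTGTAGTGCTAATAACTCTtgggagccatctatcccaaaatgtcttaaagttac

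Probes with 25 bases in common thus gave log2 fold changes of opposite sign as ratios, and 0.01 and -0.24 in Cy5 alone. No direction is given for Cd46. Of the 27 genes compared, 22 had both dyes above background on all arrays, and none of these was called. In a fit on such probes alone none was called either, against 1.9% of 24649 probes, so 0 of 22 does not set these genes apart. With an unadjusted P under 0.05 in that fit there was 1, C5ar2, and no share over all probes is given beside this count. In the main fit the share of all gene names at that threshold was 7.95%.

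Other genes of the pathway, taken from a list of their own, showed no change past the threshold. Of 29 such genes 28 were on the array and 18 could be compared, 12 with positive and 6 with negative log2 fold changes and a median of 0.09. None had an unadjusted P under 0.05 in limma, against 7.95% of all gene names, so 0 of 18 does not set these genes apart. Vtn, which encodes vitronectin, an inhibitor of the terminal complex, had 0.70 (standard error 0.45). The integrin subunits of complement receptors 3 and 4 had 0.07 for Itgam, -0.47 for Itgax and -0.32 for Itgb2. Cr2 was singled out after its values were seen. This B cell receptor for C3 fragments gave 4.87, 0.99 and 1.09 in wild-type and 0.87, 0.83, 0.53 and 0.16 in PRA transgenic glands. The genotypes did not overlap, but wild-type replicate 1 stood far above all others, and the adjusted p was 0.632 (limma). The same gland had the highest mean over 5 B cell genes, of which Cr2 is one, at 1.58 against -1.24 to -0.52 elsewhere, and over 8 T cell genes at 1.84 against -0.64 to 0.01. Lymph nodes had been removed before freezing, and the part of leftover lymphoid tissue in that gland was not tested.

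Animals of 1 genotype differed from each other in a way that several complement genes shared. Wild-type replicate 3 was the lowest wild-type array for 15 of the 27 genes (55.6%, against 36.9% of 22470 gene names measured on all arrays), and wild-type replicate 1 the highest for 15 (against 28%). PRA transgenic replicate 2 was the lowest of its genotype for 12 genes (44.4%, against 28%), and PRA transgenic replicate 4 for 3 (11.1%, against 29.2%). Both lowest arrays came together in 10 of the 27 genes (37%, against 16.1% of gene names), C1qc, C1ra, C2, C4b, Cfb, Cfd, C5ar1, C6, C7 and Cd55. White adipocyte markers moved with this order, which 5 of 8 of them shared (Adipoq, Cidec, Fabp4, Plin4 and Retn). It was also found in 3 of 8 fibroblast genes (Dcn, Dpt and Pdgfra), in 2 of 8 neutrophil and monocyte genes (Ccr2 and Ly6c2), in Cox8b of the brown adipocyte list and in Cdh5 of the endothelium list. Of the 18 other complement genes compared, 10 had it. Among these, Ptx3 qualified for comparison through the wild-type glands only, with Cy5 well above background in 3 of the 4 PRA transgenic glands. The mean of the white adipocyte list was lowest in the same glands, at 5.93 against 6.04 to 6.28 in the other wild-type glands and at 5.84 against 6.07 to 6.57 in the other PRA transgenic glands. The fibroblast mean was lowest in wild-type replicate 3 (2.83) but not in PRA transgenic replicate 2 (2.89, against 2.84 in replicate 3). No macrophage gene of 14 had this order. The part of adipocyte content in these complement values was not tested. Genes of an animal are measured together, and this count is a description that was made after the values were seen. C2 stood at 3.41 and C4b at 3.74 in wild-type replicate 3, against 4.25 to 4.31 and 4.61 to 4.63 in the other wild-type glands. C1ra, C2, Cfb and Cfd encode serine proteases of the cascade and C4b a partner of C2, and their probes lie on chromosome 17 for C2, C4b and Cfb, on chromosome 6 for C1ra and on chromosome 10 for Cfd. C2 and Cfb are neighbors, at chr17:34999575-34999634 and chr17:34993502-34993858. C1qa, C1qb, C3 and Serping1 had another array as the lowest in at least 1 genotype.

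**Figure D5:**
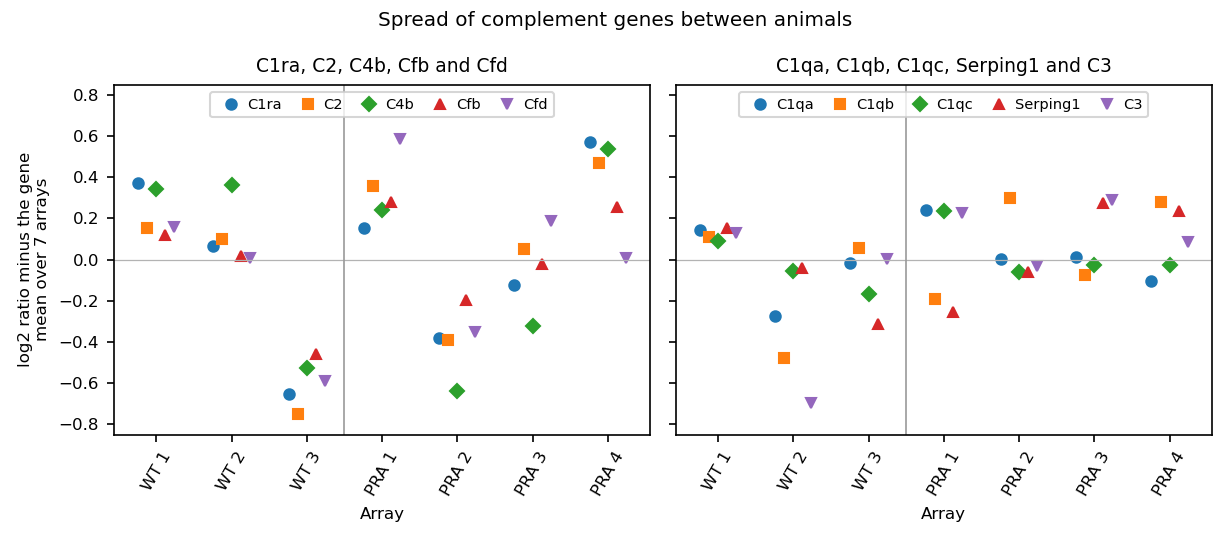
Log2 ratio minus the mean of each gene over the 7 arrays, with a symbol for each gene and arrays along the horizontal axis (WT, wild-type; PRA, PRA transgenic). In the left panel all 5 genes are lowest in WT 3 and PRA 2 within their genotype, and in the right panel C1qc shares that order and C1qa, C1qb, Serping1 and C3 do not.

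No cell type list differed between genotypes after adjustment over the 12 lists, the neutrophil and monocyte list given above included. That list reached the lowest exact p that 3 arrays against 4 allow, 0.0286, and still had 0.343 after adjustment. A single list could therefore not have passed, and the adjusted values decide little. Of the markers of mammary epithelium, all 8 luminal and all 7 basal genes could be compared, as could all 8 T cell genes and 7 of 8 skeletal muscle genes. In two-sided exact permutation tests the difference between genotypes was -0.01 for the luminal epithelium list (p = 1), 0.145 for basal epithelium (p = 0.143), 0.08 for white adipocytes (p = 0.714) and 0.09 for brown adipocytes (p = 0.857). It was -0.14 for fibroblasts (exact permutation p = 0.514), 0.11 for endothelium (p = 0.457) and -1.29 for skeletal muscle (p = 0.4), whose means ran from -1.42 to 2.81 between single glands. For T cells the difference was -0.92 (exact permutation p = 0.0857) and for B cells -0.78 (exact permutation p = 0.4). Without wild-type replicate 1 these were -0.23 and 0.07. Cd8a (-2.71), of the T cell list, qualified for comparison through the wild-type glands only, with Cy5 well above background in 1 of the 4 PRA transgenic glands. Areg of the luminal list and Actn3 and Myh1 of the skeletal muscle list also qualified through wild-type glands only. After Benjamini-Hochberg adjustment the lowest p of these lists, the neutrophil and monocyte list aside, was 0.513. A p of this size does not show that cell content was equal. Over 13 alternatives the difference ran from -0.33 to 0.34 for luminal and from 0.06 to 0.22 for basal epithelium. It ran from -0.155 to 0.18 for white adipocytes, from -0.18 to 0.31 for brown adipocytes and from -0.14 to 0.21 for endothelium.

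The 8 genes that could not be compared are mostly products of the liver or of resident macrophages. C9, which forms the ring of the membrane attack complex, was above background in wild-type replicates 2 and 3 and PRA transgenic replicates 2 and 4, with log2 ratios of 2.45, 4.31, 2.85 and 2.44 there. Cfi, the protease that inactivates C3b and C4b, was above background in wild-type replicates 1 and 2 and PRA transgenic replicates 1 and 4. Vsig4, a C3b receptor of resident macrophages, was so in wild-type replicate 1 and PRA transgenic replicates 2 and 4. C4bp, C8a and C8b were above background on no array. No fold change is given for any of the 8.

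Since the transgene encodes a transcription factor, promoters were searched for TGTTCT, the hexamer that progesterone and glucocorticoid receptors share, on both strands. RefSeq windows (GRCm38.p6) of 300 bases around the start site were found for 26 of the 35 genes. Of these 7 (26.9%) held the hexamer in at least 1 window, namely C1qb, C1qc, C5ar2, C8g, C9, Mbl1 and Mbl2. By window it was 8 of 28 (28.6%), against 19.0% of all 32851 windows. The windows of C6, C7 and Hc did not hold these letters, which says nothing about receptor binding there.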

How the data were processed

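For each of the 7 arrays the authors deposited Agilent Feature Extraction output (version 12.0, per the submitters' processing notes), in which the processed intensity of each dye was already corrected for background and dye bias. The deposited series table holds log2 ratios, found from the files to be centered for each probe on the median of the 7 arrays. The log2 ratio of processed Cy5 to Cy3 was taken without control and outlier spots (no spot was saturated), and spots of a probe were averaged. Probes compared numbered 34284, and 40 of the 57 complement probes were among them. The genotypes were compared in limma (version 3.58.1, R version 4.3.3), by lmFit and eBayes, and p-values were adjusted over all these probes by the Benjamini-Hochberg method. On simulated data for this comparison, limma found 141 of 200 probes shifted by 2 on the log2 scale among 34248 at an adjusted p under 0.05, with 7 false calls. The 200 shifted probes ease the Benjamini-Hochberg limit, and in the real data 4 probes passed it. The share found need not hold for a single gene. C6, with a log2 fold change of -1.92, had an adjusted p of 0.352 (limma).

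The members and lists were chosen with earlier results of these data known. Every member is described by its brightest probe. Full values are given where P was under 0.05 or genotypes did not overlap, and always for C1qa, C1qb, C1qc, C3, C4b, Cfd, Cfb, Hc, Clu and Serping1. Values of some other members were added because they showed how single animals differed. Other probes are named where they passed P under 0.05 and 1.5-fold, and for some members whatever their values. Symbols and mm9 positions are those of the files, and exon annotation of that build was not used here. There were 18 alternatives, among them normexp (offset 50) with loess, Cy5 alone, other filters, the methods' t-test, a replicate block and each array left out. For the 12 cell type lists (macrophage, neutrophil and monocyte, T cell, B cell, luminal and basal epithelium, white and brown adipocyte, fibroblast, endothelium, hepatocyte, skeletal muscle) the alternatives were added after the data were seen.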

Additional observations from a re-analysis of the deposited data

Results flagged for a closer look

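In 39 groups of 4 PRA transgenic values (27 genes and 12 cell type lists), the gap between the most distant animal and its nearest neighbor was divided by the range of the group, and a share above Dixon's 95% limit was taken as a sample far from the others. Chance gives about 1 in 20, or 1.95 of 39, and 7 were found. The groups are not independent, since several of them share an animal. PRA transgenic replicate 4 stood high for Cfp (share 0.919), C3ar1 (0.95), the mean of the fibroblast list (0.905) and the mean of the skeletal muscle list (0.929), and low for C1qbp (0.885). PRA transgenic replicate 1 stood high for C1qc (0.884), and PRA transgenic replicate 2 low for the mean of the endothelium list (0.914). In groups of 3 no such check was made.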

How the results depend on the processing

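Under all 18 alternatives the median log2 fold change of the complement genes lay between -0.05 and 0.11, beside 0.06 in the main fit. Its sign was therefore not settled. Each value moved by less than 0.31, the SD between animals of the median level over the members. That limit is wide beside 0.06, so staying within it shows little. None of the 17 fits gave a complement gene with an adjusted p under 0.05. C6 kept its direction and an unadjusted P under 0.05 in the 16 that included it, which all but Cy5 alone use its dim reference signal. The 1 complement gene called (3.7%, against 4.52% of all probes) became 2 after normexp and loess (7.41%, against 0.957%) and 2 in Cy5 alone (7.41%, against 3.42%). It became 3 with array weights (11.1%, against 5.94%). With the replicate block it became 4 (14.8%, against 7.13%), namely C6, C5ar1, Cd46 and Cd55. With both dyes above background on all arrays, which leaves C6 out, it was 0 of 22 (against 1.9%). Leaving out 1 array gave 1 to 5, with 5 without PRA transgenic replicate 4 (18.5%, against 6.80% of all probes), 4 without wild-type replicate 2 (14.8%, against 4.58%) and 2 without PRA transgenic replicate 1 (7.41%, against 4.78%). Hc reversed in Cy5 alone (0.75) and turned positive after normexp and loess (0.29, unadjusted p = 0.198).

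Over all probes, the 1551 past P under 0.05 and 1.5-fold became 328 after normexp and loess, 3367 with no filter, 468 with both dyes above background, 995 by the methods' t-test and 2443 with the replicate block. Leaving out 1 array gave 1381 to 2333, the latter without PRA transgenic replicate 4. The 4 probes with an adjusted p under 0.05 became 15 with no filter, 1 by the t-test, 11 with array weights and 0 with the replicate block (2443 at the unadjusted threshold). They were 1 to 12 with 1 array left out (12 without PRA transgenic replicate 4, 1 without PRA transgenic replicate 3, 2 without wild-type replicate 3). The neutrophil and monocyte difference of -0.41 was -0.21 after normexp and loess (exact permutation p = 0.314), -0.27 in Cy5 alone, 0.015 with both dyes above background, and -0.54 to -0.25 with 1 array left out, where no exact test of 6 arrays can reach P under 0.05. The causes were not tested. The block is no pairing: replicates of the same number correlated at 0.10, -0.30 and 0.04 in their deviations, and PRA transgenic replicate 4 has no partner. Signal over background limits what the dim reference probes of C6, Hc and Cd46 can show.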
